A study of Arabidopsis thaliana with 4 samples.

Results

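COR15B (AT2G42530), COR15A (AT2G42540) and AT2G42560 are 3 genes of chromosome 2 of Arabidopsis that lie within a block of 4 protein-coding genes in the TAIR10.1 gene order. They were chosen as the probe sets that the platform's probe table assigns to these loci. Each has 1 probe set (263495_at, 263497_at and 263492_at, in that order), so the 3 genes stand for 3 of the 22746 probe sets in the series. The fourth gene of the block, AT2G42550, lies between COR15A and AT2G42560 and was not analysed here, since the probe table names no probe set for it.

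COR15A and COR15B are a pair of closely related cold-regulated proteins. They are carried into the chloroplast stroma, fold on dehydration and stabilise membranes against freezing and water loss. Their genes are classical targets of the CBF/DREB transcription factors in the cold and also respond to abscisic acid (ABA), the hormone that rises under water deficit. AT2G42560 codes for a late embryogenesis abundant (LEA) protein. LEA proteins are very hydrophilic, largely unfolded in solution, and known from maturing seeds and from leaves under drought. All 3 genes are placed in the LEA_4 group of the family.

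The values are signals of 4 one-colour Affymetrix arrays, each hybridised with RNA of whole seedlings aged 16 days after 6 h on a 40% solution of polyethylene glycol (PEG), which withdraws water from the tissue. The groups were 2 arrays of wild type (WT) and 2 arrays of the mutant ced1. All seedlings carried the gl1-Col0 background, a Columbia line named for a mutation that removes leaf hairs, and all had received PEG. In the study of this mutant, NCED3, a gene of ABA synthesis, is known to be induced only weakly by stress, and ced1 is known as an allele of the cuticle gene BODYGUARD. Neither of these genes was analysed here, so the mutated gene gave no check of the genotype labels. Without untreated seedlings in the comparison, each signal is a level after PEG, and a difference that existed before PEG cannot be told apart from a changed response to it. The labels do not say how many seedlings were pooled for an array. In whole seedlings, fewer cells of a type and less RNA per cell cannot be told apart.

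The arrays had median signals of 156.3 to 187.5. Across probe sets, which are not independent replicates, the correlation of log2 signals was r = 0.970 within WT, r = 0.989 within ced1 and r = 0.839 to 0.874 between genotypes. The tissue was checked with short marker lists. All 7 leaf photosynthesis genes with a named probe set gave signals of 2431.5 or more on each of the 4 arrays. Of the 3 root genes with a named probe set, PYK10 gave 5868.6 or more on each array, while EXPA18 gave 129.8 to 178.1 and EXPA7 gave 46.3 to 126.5, near or under the level of the low-signal filter, a signal of about 102.7. OLEO3, an oil body protein of seeds and the one gene of the seed list with a named probe set, gave 64.6 to 82.6 on the 4 arrays and lay under the low-signal filter.

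All 3 genes were at lower level in ced1 than in WT. COR15A and COR15B had 21.5% and 20.5% of their mean WT signal in ced1, and AT2G42560 had 3.92%. The share left was smaller for AT2G42560 than for COR15A and COR15B on each of the 4 pairings of a ced1 with a WT array, while the decreases of COR15A and COR15B differed by 0.01 on the log2 scale. These calls come from a test over 13648 probe sets in which 19.2% of probe sets were called lower and 23.2% higher in ced1, by limma with p adjusted by Benjamini-Hochberg and a threshold of 0.05. On 33.6% of the tested probe sets both ced1 signals lay below both WT signals.

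COR15A gave signals of 17525.5 (array 1) and 15315.4 (array 2) in WT, and of 3486.9 and 3576.2 in ced1. The WT arrays lay close together, the ced1 arrays lay closer still, and the genotypes did not overlap. The mean was 16420 ± 1563 in WT and 3532 ± 63.1 in ced1 (SD, n = 2 each), which is 4.65-fold lower. The log2 difference, taken on log2(signal + 16) as ced1 minus WT, was -2.21 ± 0.12 (SE), with a 95% confidence interval of -2.49 to -1.92 (limma, adjusted p = 0.000101). Over the 4 pairings of a ced1 with a WT array, the ced1 signal was between 19.9% and 23.4% of the WT signal.

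COR15B gave signals of 7632.4 and 3954.1 in WT, and of 1140.2 and 1236.5 in ced1. WT array 1 stood well above WT array 2, the ced1 arrays lay close together, and the lower WT signal was still above both ced1 signals. The mean was 5793 ± 2601 in WT and 1188 ± 68.1 in ced1 (SD, n = 2 each), which is 4.88-fold lower. The log2 difference was -2.20 ± 0.28 (SE), with a 95% confidence interval of -2.85 to -1.54 (limma, adjusted p = 0.00125). Its size rested on which WT array was used. Without WT array 1 the difference was -1.72 and without WT array 2 it was -2.67. With 1 WT array left, the gap between the WT arrays no longer entered the test, so these fits give sizes only. Over the 4 pairings, the ced1 signal was between 14.9% and 31.3% of the WT signal, a wider range than for COR15A.

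For AT2G42560 the signals were 3164.9 and 2081.8 in WT, and 92.9 and 112.6 in ced1. WT array 1 was again the higher of the WT arrays, and the gap between the genotypes was far wider than the gap within either. The mean was 2623 ± 766 in WT and 102.8 ± 13.9 in ced1 (SD, n = 2 each), which is 25.5-fold lower as measured. The log2 difference was -4.45 ± 0.22 (SE), with a 95% confidence interval of -4.98 to -3.92 (limma, adjusted p = 8.77e-05). The gene passed the low-signal filter through WT, since its mean log2 signal in ced1 lay just under the level of the filter. A signal so low cannot be told from background here, and the size of the difference depends on the offset of 16: it was -4.64 with an offset of 1 and -3.98 with an offset of 64.

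**Figure D1:**
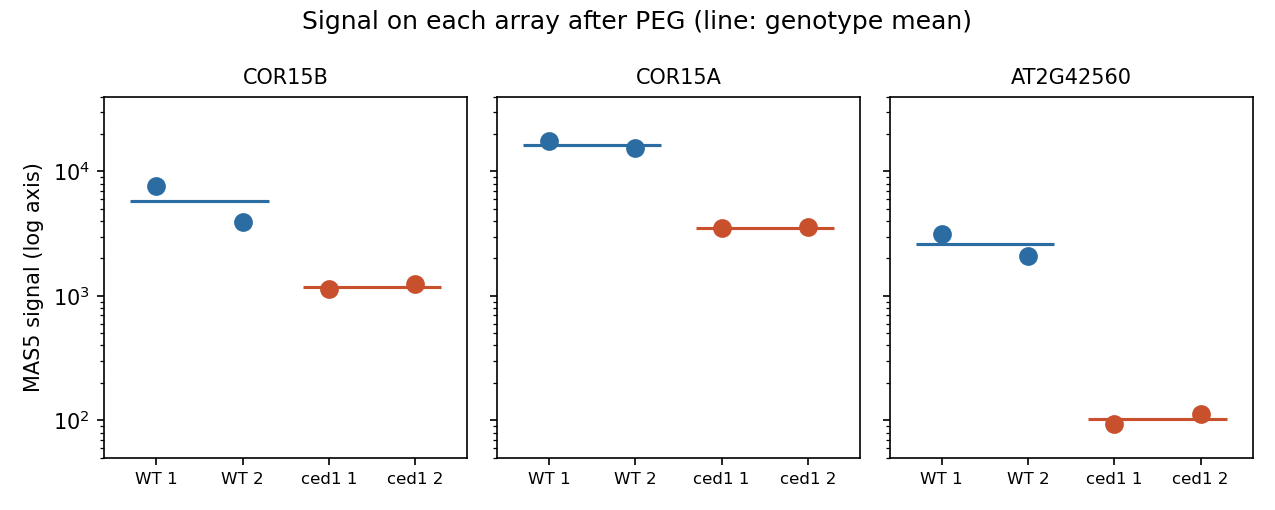
MAS5 signal (log axis) of COR15B, COR15A and AT2G42560 on the 2 WT arrays (blue) and the 2 ced1 arrays (orange), 1 point per array, with a line at each genotype's mean. In each panel both ced1 points lie below both WT points, COR15B has the widest WT pair, and AT2G42560 has the widest gap between the genotypes.

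Signals of different probe sets are not on a common scale, because probes differ in how strongly they bind. The 3 genes were therefore set against each other only by how their ratio on the same array changed between the genotypes, which also cancels any scaling factor of an array. The log2 ratio of AT2G42560 over COR15A was -2.46 and -2.87 in WT, against -5.01 and -4.80 in ced1. The genotypes did not overlap, and the ratio was lower in ced1 by a change of -2.24, against SDs of 0.29 in WT and 0.14 in ced1. The log2 ratio of AT2G42560 over COR15B was -1.27 and -0.92 in WT, against -3.41 and -3.28 in ced1, a change of -2.25 with SDs of 0.24 and 0.09. In both ratios the smallest change over the 4 pairings of arrays, -1.93 and -2.02, was still several times the SDs. With an offset of 64 the changes were -1.79 and -1.83, since the ced1 signals of AT2G42560 lie near the level of the filter, so their direction is firmer than their size. An exact permutation test (two-sided) of 2 arrays against 2 gave p = 0.333 for each of these 2 ratios, which is the smallest p the design allows.

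COR15A and COR15B lie next to each other in the gene order, and their ratio showed no such change. The log2 ratio of COR15A over COR15B was 1.20 and 1.95 in WT, against 1.60 and 1.52 in ced1. The ced1 values fell between the WT values, and the mean change was -0.01 (exact permutation p = 1.00, two-sided). Over the 4 pairings of arrays the change ran from -0.43 to 0.40, so a difference of that size between the decreases of the pair was not detectable with these arrays. Its sign turned with the WT array used: it was -0.39 without WT array 1 and 0.36 without WT array 2.

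**Figure D2:**
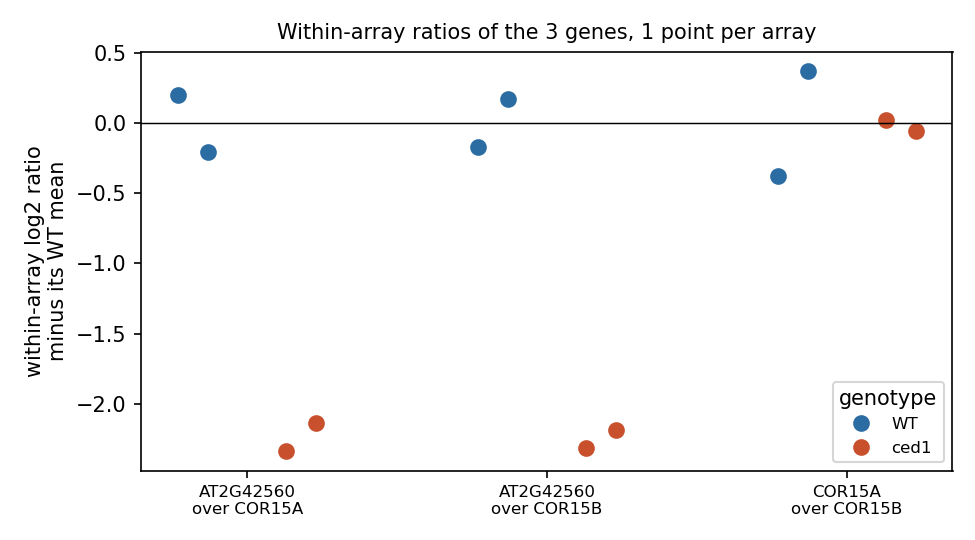
Within-array log2 ratio of each pair of the 3 genes, shown minus its WT mean, with 1 point per array (WT blue, ced1 orange). Both ratios with AT2G42560 on top have ced1 points more than 2 log2 units below the WT mean, while for COR15A over COR15B the ced1 points lie between the WT points.

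The spread between replicate arrays differed among the 3 genes and lay mainly in WT. The WT arrays differed by 0.95 on the log2 scale for COR15B, by 0.60 for AT2G42560 and by 0.19 for COR15A, with WT array 1 the higher in each case. The median of this gap over all tested probe sets was 0.24. The gap of COR15B was larger than that of 97.1% of tested probe sets, that of AT2G42560 larger than 87.7%, and that of COR15A larger than 41.8%. The ced1 arrays differed by -0.12 for COR15B, -0.04 for COR15A and -0.24 for AT2G42560, array 1 minus array 2, against a median size of 0.12. For AT2G42560 this gap belongs to signals near the level of the filter.

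WT array 1 was also the higher WT array for the 6 other tested genes of the LEA_4 group, and for 43.4% of all tested probe sets. Among LEA_4 genes under the filter, AT2G18340 and AT5G44310 had the higher signal on WT array 2. The summed signal of the 7 leaf photosynthesis genes went the other way within WT, from 48604 on WT array 1 to 62734 on WT array 2, and was 101769 and 104885 on the ced1 arrays. Strong probe sets weigh most in such a sum. Within WT, LHCB4.2 went from 2431.5 to 8395.7, while PSAN alone was higher on WT array 1, at 6306 against 6087.1. Of these 7 genes 6 were higher in ced1 and 1 did not pass, against 23.2% higher over all tested probe sets. The summed signal of the 3 root genes was 9788 and 9694 in WT and 6536 and 6064 in ced1, nearly all of it from PYK10, while EXPA18 differed by -0.06 ± 0.23 and did not pass. The part of these tissue markers in the differences of the 3 genes was not tested.

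**Figure D3:**
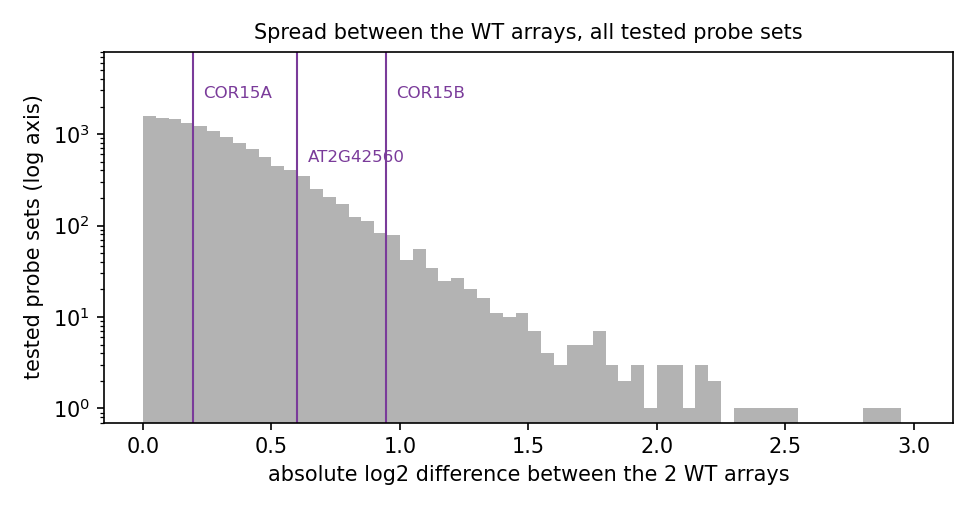
Number of tested probe sets (log axis) by the absolute log2 difference between the 2 WT arrays, in bins of 0.05, with lines at COR15A, AT2G42560 and COR15B. COR15A at 0.19 lies below the median of 0.24, while COR15B at 0.95 lies in the sparse right tail.

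None of the tested genes around the block had a decrease near the size of those 3. Among the 12 protein-coding genes on each side, 8 of 24 have a named probe set, and 5 of these passed the low-signal filter. Of these 5 genes, 2 were higher in ced1, 1 was lower and 2 did not pass. Over all tested probe sets 23.2% were higher and 19.2% lower, so 1 lower gene of 5 is near the background. AT2G42520, the gene directly next to COR15B, had signals of 997 and 1082.1 in WT and of 786.3 and 701.7 in ced1, a log2 difference of -0.47 ± 0.15 (limma, adjusted p = 0.0363). That call was lost without ced1 array 1 at -0.56 and without ced1 array 2 at -0.39. TBL39 (AT2G42570), a gene of the trichome birefringence-like family and the next gene after AT2G42560, had signals of 436.7 and 337.4 in WT and of 422.2 and 485.8 in ced1. The genotypes overlapped, and TBL39 did not pass, at 0.23 ± 0.19 (limma, adjusted p = 0.351, 95% confidence interval -0.21 to 0.67).

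Farther out, AT2G42690 was higher in ced1, with signals of 727.3 and 912.2 in WT and of 2368.8 and 2524 in ced1, a log2 difference of 1.57 ± 0.16 (limma, adjusted p = 0.000529). AT2G42490 was higher at 0.45 ± 0.15 (limma, adjusted p = 0.0423). Its call was lost without ced1 array 1 at 0.50, without ced1 array 2 at 0.40, and with equal array medians at 0.28. AT2G42450 differed by -0.18 ± 0.22 and did not pass. The 3 genes under the filter, AT2G42480, AT2G42640 and AT2G42660, had signals between 3.3 and 52 on all arrays. The other 16 genes of the window have no named probe set and were not analysed here. Of the genes that flank the block, AT2G42520 was itself called lower, by a smaller difference, and TBL39 was not called.

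**Figure D4:**
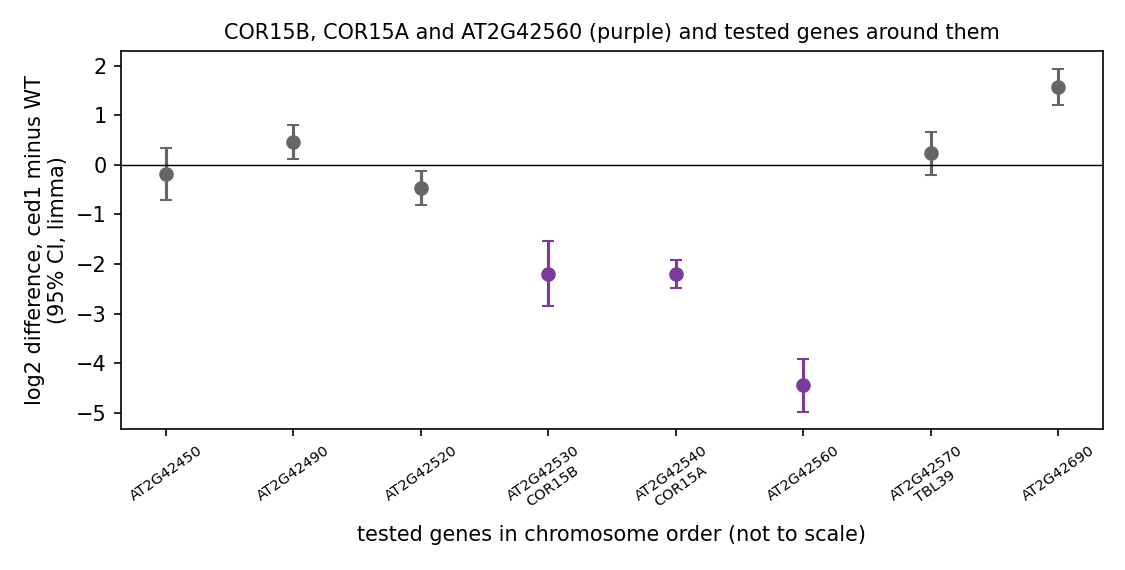
Log2 difference, ced1 minus WT, with its 95% confidence interval (limma) for the 8 tested genes in and around the block, in chromosome order and not to scale. COR15B, COR15A and AT2G42560 (purple) lie between -2.20 and -4.45, and their tested neighbours (grey) lie between -0.47 and 1.57.

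Pairs of tested genes that follow each other directly in the gene order gave a background for COR15A and COR15B. Of 2144 such pairs across the 5 chromosomes, 108 (5.04%) had both genes called lower in ced1. In 2 pairs both genes had log2 differences of -2 or less. One was COR15B with COR15A, and the other was AT1G30250 with AT1G30260, at -3.75 and -2.49, named here after their values were seen. COR15B and COR15A, at -2.20 and -2.21, lie close to the cut of -2, and without WT array 1 COR15B was at -1.72. The size of the gap between the log2 differences of 2 adjacent genes had a median of 0.65, against 0.01 for COR15B and COR15A, and 22 pairs, this one included, had a gap no larger. These are descriptions of the table. They do not take account of the spread between the WT arrays for COR15B.

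The other LEA_4 genes were lower in ced1 as well. Of 18 loci in the group, 15 have a named probe set and 9 passed the low-signal filter. All 9 tested genes were lower, COR15A, COR15B and AT2G42560 among them, with a median log2 difference of -3.14 against 0.07 over all tested probe sets. The share called lower over all tested probe sets was 19.2%. For 3 of the 9 (AT2G42560, AT4G21020 and AT4G36600) the ced1 mean lay under the filter's level, so they passed through WT and could hardly have been counted without being lower. The count of lower LEA_4 genes was 11 with no low-signal filter, and 8 with an offset of 1, where AT4G21020 fell under the filter. Without WT array 1 or without WT array 2, AT4G21020 and AT4G36600 fell under the filter and were not tested. AT3G02480 had signals of 20657.3 and 19600.9 in WT and of 5368 and 4734.2 in ced1, a log2 difference of -1.99 ± 0.12 close to those of COR15A and COR15B. AT3G17520 and AT3G15670 kept 11.0% and 11.1% of their WT mean, at -3.14 ± 0.17 and -3.14 ± 0.15. AT3G53040 differed by -3.99 ± 0.17 and AT4G36600, with low ced1 signals, by -2.28 ± 0.26, or -1.63 with an offset of 64. AT4G21020 had ced1 signals of 15.2 and 6.1, under the offset of 16, so its size is set by the offset: it was -4.53 ± 0.27, and -3.14 with an offset of 64. Among the 6 genes whose ced1 mean lay above the filter's level, the differences ran from -1.99 to -3.99, with the COR15 pair near the small end.

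The 6 LEA_4 genes under the filter were not tested. AT2G18340 had signals of 112.9 and 226.7 in WT and of 15.5 and 46.5 in ced1, and AT5G44310 had 45 and 85.7 in WT and 6 and 5.4 in ced1. AT4G13230, AT1G72100, AT2G03850 and AT2G03740 had signals between 3.1 and 40.3 on all arrays, where no order can be read.

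Of 33 loci in the other LEA groups, 19 have a named probe set and 13 passed the low-signal filter. Of the 6 under the filter, M17 had both ced1 signals above both WT signals, AT3G22490 had both below, and the others overlapped. Of the 13 tested genes, 10 were lower in ced1 and the remaining 3 did not pass, against 19.2% lower over all tested probe sets. For 2 of the 13, AT2G21490 among them, the ced1 mean lay under the filter's level. These passed through WT and could hardly have been counted without being lower. The median log2 difference of the 13 was -1.38. The largest differences were those of LEA18 and LEA4-5, both of the LEA_1 group, at -3.21 ± 0.15 and -3.14 ± 0.14, and of the dehydrin AT2G21490 at -2.67 ± 0.32. AT2G21490 had low ced1 signals of 86.6 and 36.4, and its difference was -2.06 with an offset of 64. Among cold-regulated genes outside the family, COR27 and AT4G33980 were the 2 of 13 that the probe table names. Both were lower in ced1, at -3.32 ± 0.24 and -3.68 ± 0.17. Of 16 transcription factor genes of the CBF/DREB and ABF/ABI5 routes, the zinc-finger gene STZ was the one with a named probe set. It was lower at -0.51 ± 0.13, and its call was lost without ced1 array 1 at -0.41 and without ced1 array 2 at -0.61. The levels of the CBF, DREB2 and ABF genes themselves were not analysed here.

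**Figure D5:**
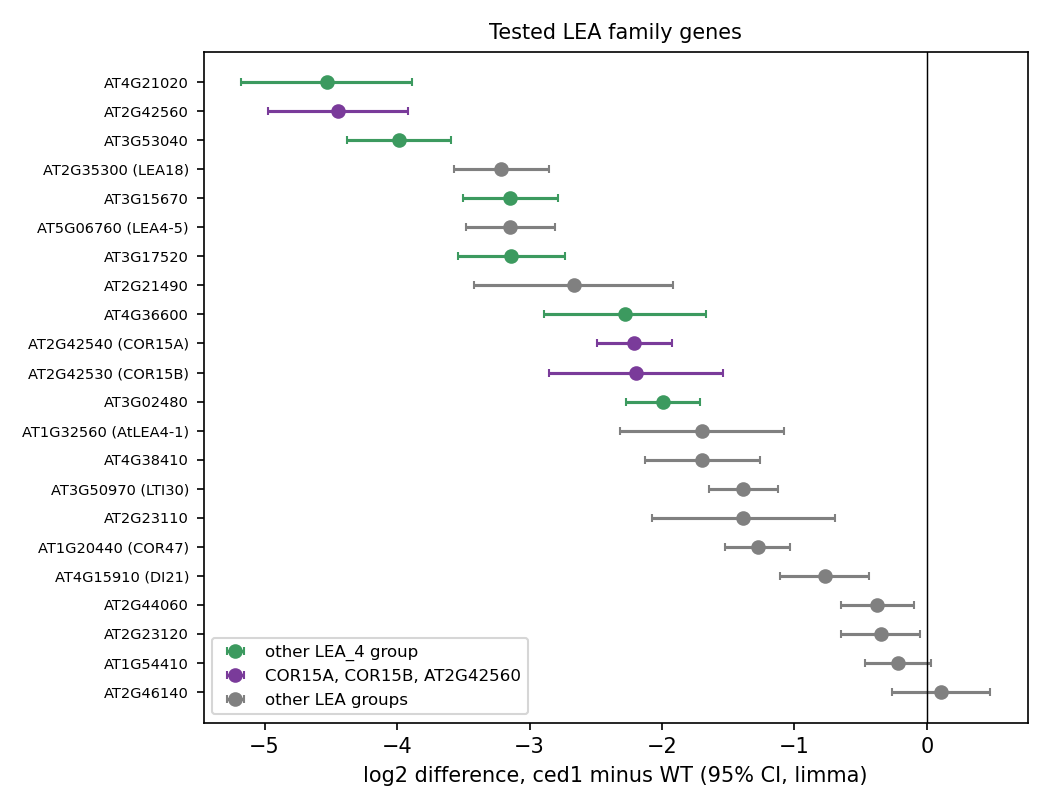
Log2 difference, ced1 minus WT, with its 95% confidence interval (limma) for the 22 tested LEA family genes, ordered by size. COR15A and COR15B (purple) lie near -2.2 beside AT3G02480, AT2G42560 (purple) lies at -4.45, a size that depends on the offset as does that of AT4G21020, the other LEA_4 genes are green, and the other LEA groups (grey) reach from -3.21 to 0.11.

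The patterns over the 4 arrays were also compared with those of 7172 other tested genes, as the Euclidean distance between log2 profiles that were each centred on their own mean. Nearest to COR15A were AT1G76590, AT4G33150 (LKR/SDH, an enzyme of lysine breakdown) and AT4G01960, at distances of 0.07, 0.09 and 0.09 and with log2 differences of -2.25, -2.28 and -2.23. Nearest to COR15B were WSD1, a wax ester synthase gene, UGT76E12, a glycosyltransferase gene, and AT4G19390, at distances of 0.17, 0.22 and 0.29. These genes shared with COR15B a WT array 1 well above WT array 2: WSD1 had 815.4 and 377.4, and UGT76E12 had 3340.2 and 1959.3. Nearest to AT2G42560 were AT3G53040, AT4G21020 and AT2G23910, at 0.51, 0.55 and 0.76, and the first 2 of these are LEA_4 genes. The likeness to AT4G21020 depends on the offset: with an offset of 64 the log2 differences were -3.14 for AT4G21020 and -3.98 for AT2G42560. WSD1 and AT2G23910 also had ced1 signals under the filter's level. With an offset of 64 they were at -1.95 and -3.20, and COR15B was at -2.15. COR15A and COR15B were 0.53 apart, with 76 genes closer to COR15A and 36 genes closer to COR15B than the pair were to each other. AT2G42560 was 2.26 and 2.27 from COR15A and COR15B. Distances over 4 arrays mostly restate the genotype difference and the gap between the WT arrays.

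COR15A and COR15B are closely related genes, and whether their probe sets bind transcripts of the other gene was not tested. The WT arrays differed by 0.95 for COR15B and by 0.19 for COR15A, and the log2 differences between the genotypes were -2.20 and -2.21.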

How the data were processed

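The deposited intensity values are 1 linear signal per probe set, made by the authors with MAS5, per the submitters' processing notes, from one-colour Affymetrix arrays. Per the labels' protocols, 6 µg of total RNA was turned into biotinylated cRNA. For MAS5, neither version nor scaling target is given in the sources used here; coordinates are left out because no genome build is named. Trimmed means were 495.4 to 496.1 on the 4 arrays. Groups and replicate numbers came from the sample titles, which call the arrays biological replicates. The titles do not say how the replicates were grown apart, so the sources of variation behind each p-value are not known in full. Depth does not apply to arrays: 2 arrays per genotype limit the precision.

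An offset of 16 was added to each signal before log2, and limma 3.58.1 (in R 4.3.3) fitted genotype as the factor, using lmFit and then eBayes with trend, on 2 residual degrees of freedom. The 9098 probe sets with a mean log2 signal under the 40th percentile were left out, and p-values were adjusted by Benjamini-Hochberg over the other 13648 at a threshold of 0.05. The probe table gives 1 gene for 13513 probe sets, of which 13436 matched the TAIR10.1 gene table by gene ID; where a gene had several probe sets, that of highest mean signal was used. Named genes are the 3 members, all tested LEA_4 genes, up to 3 genes of each other list by size of difference, all tested genes within 12 genes of the block, and the 3 nearest profiles per member. LEA, marker and neighbouring genes under the filter, and PSAN, AT1G30250 and AT1G30260, are named outside this rule, after their values were seen. Members and lists were chosen with earlier results of these data known. The 12 alternatives (offset, filter, normalization, trend, replicate block, each array left out) are given in the closing section.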

Additional observations from a re-analysis of the deposited data

How the results depend on the processing

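COR15A, COR15B and AT2G42560 remained lower in ced1 in each of the 12 alternatives, and past the threshold in each that kept all 4 arrays. The log2 differences ranged from -2.38 to -2.11 for COR15A (limma adjusted p from 1.08e-12 to 0.000934), from -2.67 to -1.72 for COR15B (2.68e-10 to 0.00536) and from -4.75 to -3.98 for AT2G42560 (3.58e-15 to 0.000638). With each array left out in turn they ranged from -2.31 to -2.11, from -2.67 to -1.72 and from -4.75 to -4.15. In those fits 1 array stood for a genotype with no spread of its own, so they give sizes only. The smallest limma adjusted p of each gene came from the fit with the replicate number as a block. That fit had 26.9 total degrees of freedom against 7.15 in the main fit, so its p-values overstate what 4 arrays can show. With an offset of 64, which raises low signals, the change of the within-array log2 ratio of AT2G42560 was -1.79 over COR15A and -1.83 over COR15B. In the other alternatives it ran from -2.44 to -2.04 over COR15A and from -2.43 to -2.08 over COR15B. The change of the ratio COR15A over COR15B ran from -0.39 to 0.36. Equal array medians moved the median over all tested differences from 0.07 to -0.09 and the split from 3161 higher and 2626 lower to 2213 and 3437, with COR15A, COR15B and AT2G42560 at -2.38, -2.36 and -4.62. With single arrays left out, between 1329 and 3333 probe sets were lower in ced1. The number was 1426 without ced1 array 1 and 1329 without ced1 array 2, where 1 array stands for ced1 and is assumed to vary like WT, and 1313 and 1200 probe sets were higher. The samples share only a replicate number: deviations of same-numbered arrays correlated with r = 0.09 across probe sets, and a fit with the replicate number as a block gave 2951 lower probe sets and the same differences for the 3 genes, -2.21, -2.20 and -4.45. PYK10 was lower at -0.64, or -0.59 without ced1 array 2, where it did not pass. AT2G42490 did not pass without the filter or without the trend, at 0.45 in each, nor AT2G42520 without the trend, at -0.47. The alternatives for genes other than the 3 members were chosen after seeing the data.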
